A study of Xenopus laevis with 46 samples.

Results

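The comparison described here is between *Xenopus laevis* animal pole explants at the blastula stage and the same kind of explant at stage 13 after culture in IBET (I-BET762), a drug that keeps BET proteins off acetylated chromatin. It asks what uninjected explants still gained, and what they still lost, after stage 9 when BET activity was inhibited from that stage onwards. The members were every gene in the count tables and the samples were the 3 libraries labelled uninjected at stage 9 and the 3 labelled uninjected and treated with IBET from stage 9 to stage 13, which are 6 of the 46 libraries of the series. Of the 49281 genes listed, 21899 held enough reads to be tested. The study as a whole followed explants treated from the 2-cell stage or from stage 9, and explants reprogrammed to a neural crest state with Wnt and Chordin, in 18 conditions.

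All embryos were labelled wild type. The stage 9 explants were untreated blastula animal pole, the IBET group had received the inhibitor from stage 9, and another group of 3 libraries had received DMSO, the vehicle, over the same interval. A further 4 libraries came from embryos kept in IBET from the 2-cell stage and collected at stage 9 or stage 13, with 2 libraries each. Both groups of stage 13 explants are labelled as epidermal in cell type. The labels give no count of explants or parents per library, so that the spread between libraries of a group may be partly technical. Every value below comes from n = 3 libraries per group, named a, b and c after the count columns, unless said otherwise.

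As background, animal pole cells of the *Xenopus* blastula are pluripotent. Isolated caps signal to themselves through BMP and turn into epidermis, and caps exposed to a BMP antagonist turn into neural tissue. Over the same hours stored RNAs are replaced by new ones, through the removal of RNAs laid down in the egg and the onset of new transcription from the embryo's genome. BET proteins read acetylated histones and help to release paused RNA polymerase through the kinase P-TEFb. *X. laevis* is an allotetraploid, and most genes are present as a pair of copies called homeologs, marked .L and .S.

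Between 17261470 and 32022992 reads per library were counted in genes, and no pair of replicates was close enough to be a library deposited more than once. The share of reads that fell in annotated genes was 82.1 to 82.8% at stage 9, 71.8 to 74.0% with vehicle and 58.9 to 64.4% under IBET, and reads outside any annotated feature made up 18.9 to 19.4% under IBET against 7.94 to 8.41% at stage 9. Genes detected numbered 26430 to 27406 at stage 9 and 29541 to 33240 under IBET. The part that these differences have in the results was not tested. Levels are given in CPM (reads of a gene relative to all counted reads), after scaling the 9 libraries by the trimmed mean of M values (TMM), and changes as log2 fold changes with the standard error of the fit and the adjusted p of edgeR's quasi-likelihood F test (Benjamini-Hochberg, threshold 0.05).

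**Figure D1:**
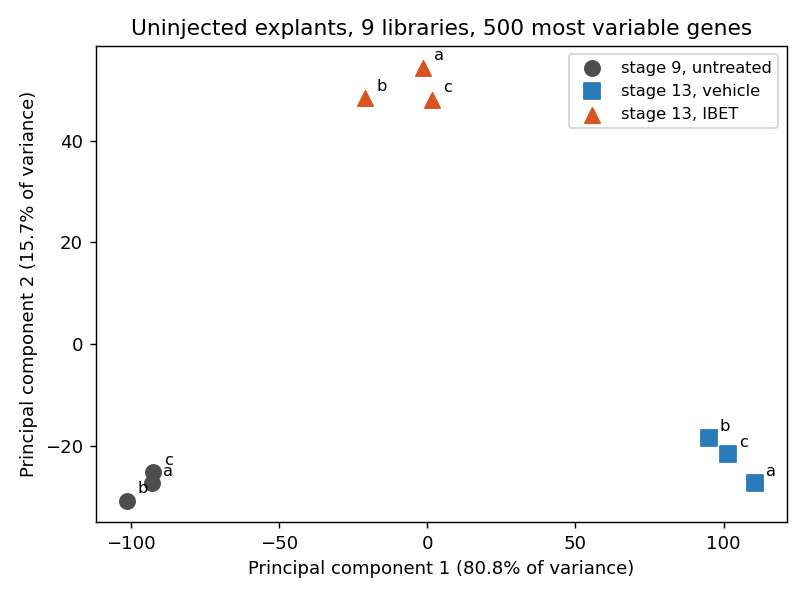
Principal components of the 9 uninjected libraries, from the 500 genes with the largest variance. Each point is a library, with its column letter. The IBET libraries lie between -20.9 and 1.6 on the first component, between the stage 9 libraries at -101.2 to -92.5 and the vehicle libraries at 95.1 to 110.6, and apart from both groups on the second.

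The explants changed widely under IBET. A total of 7070 genes rose (32.3% of those tested) and 7048 fell (32.2%) between stage 9 and stage 13, and 6384 of the rises and 6406 of the falls were of more than 2-fold. Rises beyond 16-fold were found for 2086 genes and falls of that size for 737. With vehicle over the same interval, 7848 of 21871 genes rose (35.9%) and 7746 fell (35.4%), with 2568 rises and 1257 falls beyond 16-fold. Both comparisons start from the same stage 9 libraries, so that whether the change differed is tested by the stage 13 groups against each other: 4871 of 21278 genes were higher under IBET than with vehicle (22.9%) and 5360 were lower (25.2%). The count of higher genes was 3173 without vehicle library a. In the plot of principal components, the first component carried 80.8% of the variance and the second 15.7%, and the IBET libraries were at 48.1 to 54.4 on the second where all others lay at -30.8 to -18.5.

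TMM sets the median change near 0 (-0.02 under IBET). Scaling to library totals alone moved that median to -0.76, and 4886 genes then rose and 9955 fell, so that 32.9% of the called genes were rises instead of 50.1%. With vehicle the split then became 5440 rises and 11016 falls (33.1% rises instead of 50.3%, median -0.88). For IBET minus vehicle at stage 13 it became 5538 higher and 4888 lower genes (53.1% higher instead of 47.6%). Which side was the larger there thus turned with the scaling. Size factors by relative log expression moved the median under IBET to 0.15. All directions below are therefore relative to the bulk of the genes, and those that turn with the scaling are named. In every comparison a gene near 0 in 1 group was tested only where it held enough reads in the other. Such a gene could only be called higher in that other group, so shares of lists were set in part by the filter.

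Many RNAs stored in the egg were cleared under IBET. All 10 of the largest falls among well-measured annotated genes went from at least 10.2 CPM at stage 9 to near 0. The gene ccna1.L encodes the embryonic A-type cyclin. Its level was 887, 1046 and 1084 CPM at stage 9, 1.27, 2.01 and 2.18 CPM with vehicle and 1.79, 4.06 and 4.05 CPM under IBET (log2 fold change -8.15 ± 0.38, adjusted p = 1.12e-05). Stage 9 lay apart from both stage 13 groups, and the difference between the latter did not pass (IBET minus vehicle 0.89 ± 0.48, adjusted p = 0.155).

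The same was seen for ccnb5.L, a B-type cyclin, at 465, 528 and 536 CPM at stage 9 and 0.207, 1.05 and 1.01 CPM under IBET. Among the genes of the BTG family, whose member BTG4 drives the decay of maternal RNA in the mouse, btg4.L fell from 76.6, 90.1 and 87.7 CPM to 0.138, 0.431 and 0.0506 CPM and btg3.S from 98.2, 231 and 106 CPM to 0, 0 and 0.203 CPM. The largest falls also held btg4.S, btg5.1.L and btg5.1.S, with log2 fold changes of -8.45, -9.48 and -8.50. The BTG and TOB genes as a whole, grouped by symbol after the data were seen, had no common direction. Under IBET 6 of 16 tested rose and 7 fell (37.5% and 43.8%, next to 32.3% and 32.2% of all genes). The remaining 3 are foxi2.S (-8.49), a maternal forkhead factor that activates foxi1 in *Xenopus*, zfp36l2.1.S (-8.26), a binder of AU-rich RNA that promotes its decay, and fbxo43.S (-8.18), the inhibitor of the anaphase-promoting complex that holds the egg in meiotic arrest.

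Over a list of 71 homeologs of maternal oocyte genes, 69 were tested, of which 41 fell and 16 rose under IBET, with a median log2 fold change of -2.06. Against the background of 32.2% falling, 59.4% of the list fell. Its rises numbered 10 with library totals alone. With vehicle 45 of 69 fell and 12 rose (65.2% and 17.4%, next to 35.4% and 35.9% of all genes, median -2.18). Between the stage 13 groups 20 of 59 were higher under IBET, 11 lower and 28 passed neither way (33.9% and 18.6% higher and lower, next to 22.9% and 25.2% of all genes). The summed level of the 71 was 8430 to 9140 CPM at stage 9, 7870 to 13500 CPM under IBET and 19900 to 21100 CPM with vehicle. The upper end of the list's range was held by lsm14b.L, a translational repressor of the oocyte (5.07 ± 0.24, adjusted p = 1.14e-05), and eef1a1o.S, an oocyte form of elongation factor 1 alpha (4.98 ± 0.28, adjusted p = 1.41e-05). The copy foxi2.L fell from 294, 278 and 228 CPM to 1.86, 1.66 and 1.32 CPM and remained higher than with vehicle, at 0.405, 0.39 and 0.448 CPM (IBET minus vehicle 1.97 ± 0.48, adjusted p = 0.00985).

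Some genes fell further under IBET than with vehicle. One was klf2.L, a Krüppel-like factor of the pluripotency network. Its level was 169.6, 171 and 157 CPM at stage 9, 66.2, 142 and 117 CPM with vehicle and 1.72, 1.42 and 3.75 CPM under IBET, and all 3 IBET libraries lay far below the other 6. The fall under IBET was -6.07 ± 0.40 (adjusted p = 2.18e-05), the change with vehicle was -0.58 ± 0.27 (adjusted p = 0.0825), and IBET minus vehicle was -5.52 ± 0.50 (adjusted p = 0.000114). The smaller fall with vehicle did pass with the libraries paired by letter (-0.65, adjusted p = 0.0433), with library totals alone (-1.42, adjusted p = 0.00209), with no filter (-0.71, adjusted p = 0.0363) and without vehicle library b (-0.85, adjusted p = 0.026). The same order held for ets1.S, an ETS factor of mesoderm and neural crest, at 124, 125 and 145 CPM, then 64.5, 12.7 and 30.8 CPM with vehicle and 0.552, 1.11 and 0.81 CPM under IBET (IBET minus vehicle -5.40 ± 0.66, adjusted p = 0.000424).

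For foxh1.L, the forkhead partner of Smad proteins in Nodal signalling, the values were 261, 290.3 and 136 CPM at stage 9, 17.1, 49.5 and 20.5 CPM with vehicle and 2.9, 1.78 and 1.57 CPM under IBET (IBET minus vehicle -3.79 ± 0.52, adjusted p = 0.000777). The phosphatase gene cdc25a.L, which removes the inhibitory phosphates from cyclin-dependent kinases, was at 566, 529 and 508 CPM, 102, 131 and 124 CPM and 36.9, 30.7 and 32.5 CPM in the same order of groups (IBET minus vehicle -1.81 ± 0.24, adjusted p = 0.000654). In all 4 genes just described, which were grouped here for a larger fall than with vehicle, each IBET library was below each vehicle library. The share of all genes with no overlap between these groups was not counted, so this separation is a description only.

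The label of the IBET group as epidermal was at odds with its defining keratin and regulator. Both copies of krt12.4, the usual marker of the outer epidermal layer, were near 0 under IBET, and so was tp63, the regulator of the epidermal basal layer. The copy krt12.4.L was at 0.699, 0.0889 and 0.125 CPM at stage 9, 5235, 2139 and 1796 CPM with vehicle and 0.207, 0.431 and 0.709 CPM under IBET, and krt12.4.S was at 0.828, 0 and 1.37 CPM under IBET against 3198, 1015 and 1266 CPM with vehicle. Both were too low at stage 9 and under IBET to be tested for a change after stage 9, and IBET minus vehicle was -12.63 ± 0.71 for .L and -11.21 ± 1.05 for .S (adjusted p = 2.54e-05 and 0.000128). The copy tp63.S was at 0.325, 0.378 and 1.23 CPM at stage 9, 223, 74.1 and 111 CPM with vehicle and 0.069, 0 and 0 CPM under IBET, the last of which is a single read in all. It fell from stage 9 (adjusted p = 0.00943) by a ratio of 31.9-fold (95% counting interval 5.56 to 1280), a fall that did not pass when all 10 groups of the stage 9 series shared 1 estimate of the spread (adjusted p = 0.185). In bulk RNA such as this, fewer cells of a type and less RNA per cell cannot be told apart.

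Other epidermal genes did rise. Of 48 tested on a list of 64 epidermal homeologs, 31 rose and 2 fell under IBET (64.6% and 4.17%, next to 32.3% and 32.2% of all genes, with a median of 2.07). With vehicle 46 of 57 rose (80.7%, next to 35.9% of all genes, with a median of 5.304). At stage 9, 11 of the 64 had no read. In both comparisons a gene near 0 at stage 9 was tested only where it held enough reads at stage 13, and could not fall. The shares of rises were thus set in part by the filter. Between the stage 13 groups 34 of 55 were lower under IBET and 6 higher (61.8% and 10.9%, next to 25.2% and 22.9% of all genes). There a gene near 0 under IBET was tested only where it held enough reads with vehicle, and could not come out higher. The largest rise of all named genes was that of a keratin, krt12.5.S, with no read at stage 9, 73.3, 31.4 and 52.96 CPM under IBET and 7735, 3257 and 4144 CPM with vehicle. That is a rise of at least 2160-fold against a floor of 3 reads over the stage 9 group, to a level that was lower than with vehicle in every library (IBET minus vehicle -6.55 ± 0.49, adjusted p = 5.33e-05). The marker krt70.S was also raised, from 6.02, 1.98 and 15.4 CPM to 1529.8, 675 and 1339.8 CPM under IBET, against 14648, 8008 and 11446 CPM with vehicle. The keratin krt8.1.S rose from 69.5, 80.96 and 68.7 CPM to 520.2, 458 and 487 CPM under IBET, with little spread, and to 3153, 2100.0 and 1329 CPM with vehicle.

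Some regulators of surface ectoderm were among the genes that rose, whereas tp63.S fell, as given above, and dlx3.S, given below, rose to a level far below vehicle. The GATA factor gene gata2.S, a BMP target in ventral ectoderm, went from 0.175, 0.0667 and 0.1 CPM to 146, 42.8 and 118 CPM under IBET (9.87 ± 0.67, adjusted p = 2.35e-05) and to 1089.9, 1085 and 432 CPM with vehicle. It was thus lower than with vehicle (IBET minus vehicle -3.06 ± 0.52, adjusted p = 0.00201). The grainyhead factor gene grhl3.L, a regulator of the epidermal barrier, was at 0.549, 0.178 and 3.73 CPM at stage 9, 672, 124 and 328 CPM under IBET and 758, 957 and 865 CPM with vehicle, and its IBET minus vehicle difference did not pass (-1.17 ± 0.50, adjusted p = 0.0809). Claudin 4, a tight junction protein, was likewise raised, as cldn4.L rose from 27.6, 19.2 and 39.4 CPM to 1594, 786 and 1181 CPM under IBET, near the 2178, 1675 and 1699 CPM with vehicle (IBET minus vehicle -0.61 ± 0.28, adjusted p = 0.0948). That difference passed with the libraries paired by letter and without IBET library a (adjusted p = 0.0339 and 0.0273). Library b held the lowest IBET value of gata2.S, grhl3.L and cldn4.L alike.

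Over all genes named as keratins, a grouping made after the data were seen, 14 of 77 were tested under IBET, of which 9 rose and 5 did not pass. The rises were 64.3%, next to 32.3% of all genes. At stage 9, 53 of the 77 had no read, and both copies of krt12.4 were not tested. A keratin near 0 at stage 9 was tested only where it held enough reads under IBET, and could not fall. The summed level of the 77 was 482 to 560 CPM at stage 9, 3080 to 5060 CPM under IBET and 38400 to 73400 CPM with vehicle. Between the stage 13 groups 20 of 25 keratins were lower under IBET and 1 higher (80% and 4%, next to 25.2% and 22.9% of all genes). Keratins near 0 under IBET entered this test only where they held enough reads with vehicle.

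**Figure D2:**
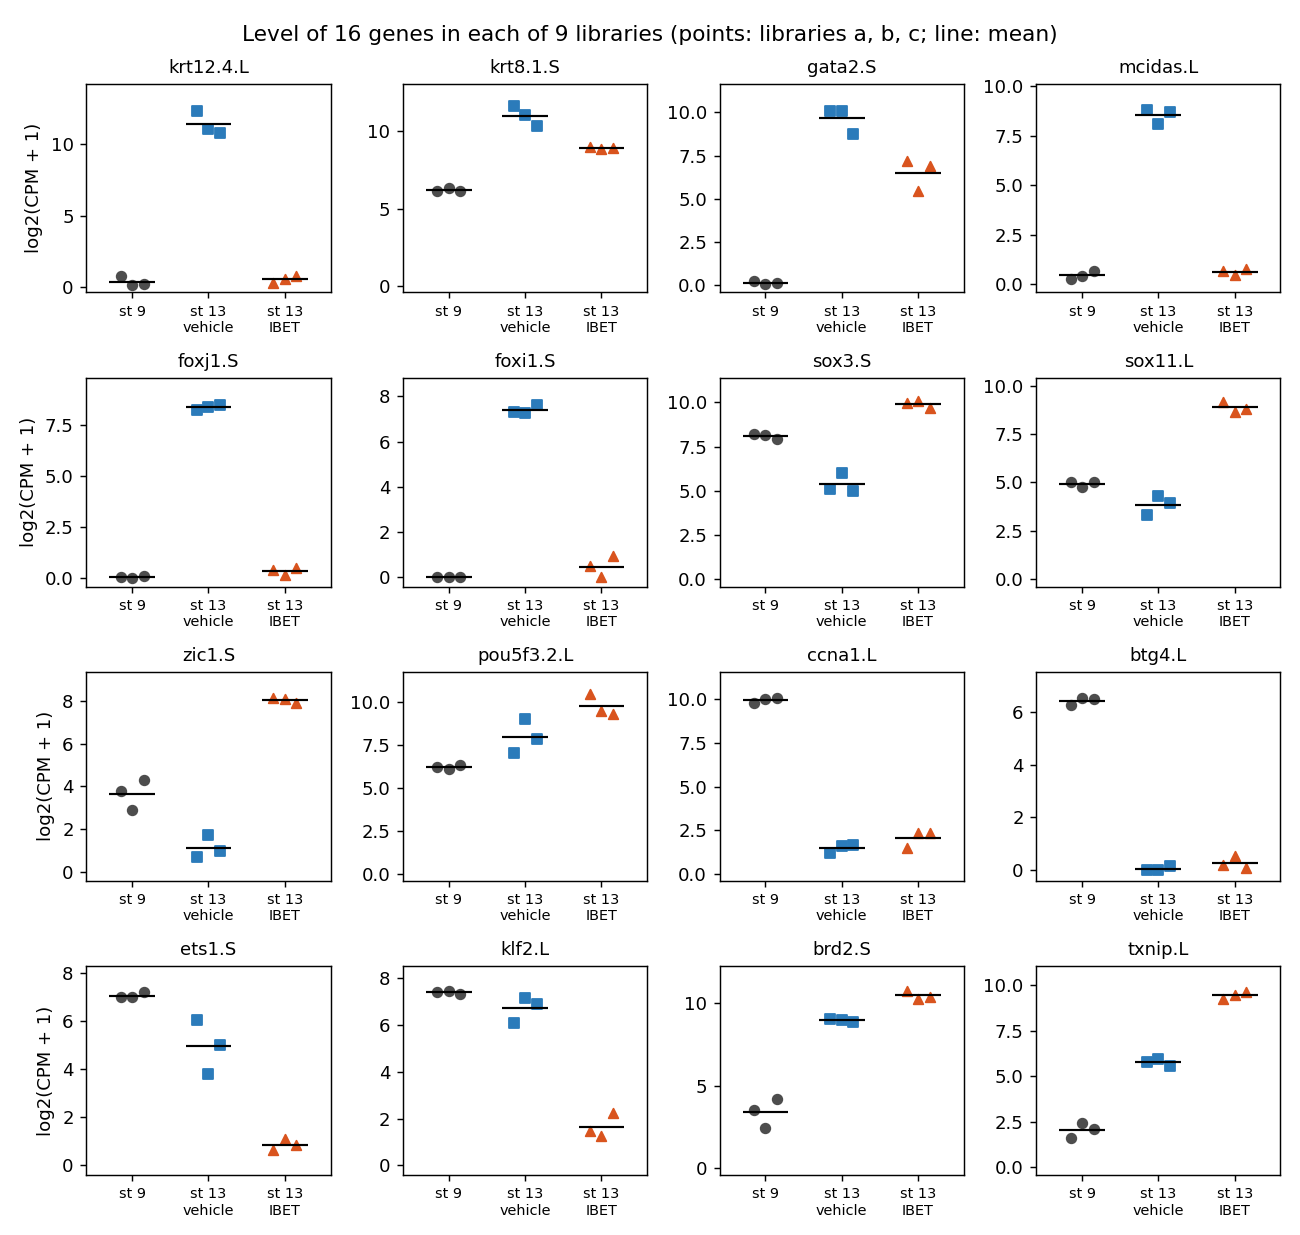
Levels of 16 genes in the 9 uninjected libraries, as log2(CPM + 1). Points are libraries a, b and c from left to right and the line is the mean of the 3 values, and the panels show genes that stayed near 0 under IBET (krt12.4.L, mcidas.L, foxj1.S, foxi1.S), that rose above both other groups (sox3.S, sox11.L, zic1.S), that were cleared (ccna1.L, btg4.L) or that fell further than with vehicle (ets1.S, klf2.L).

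The regulators of multiciliated cells, which carry the motile cilia of the embryonic skin, stayed at or near 0 under IBET. The gene mcidas encodes multicilin, the coactivator that starts the multiciliated program with E2F4 or E2F5, and foxj1 encodes the forkhead factor of motile cilia. The copy mcidas.L was at 0.225, 0.355 and 0.601 CPM at stage 9, 0.621, 0.369 and 0.709 CPM under IBET and 438, 274 and 409 CPM with vehicle, so that stage 9 and IBET overlapped (0.61 ± 0.59, adjusted p = 0.386) and vehicle stood apart (IBET minus vehicle -9.31 ± 0.40, adjusted p = 1.1e-05). The copy mcidas.S fell below its stage 9 level, from 3.25, 1.4 and 5.93 CPM to 0.276, 0.123 and 0.354 CPM (-3.68 ± 0.72, adjusted p = 0.00256), against 594, 304 and 517 CPM with vehicle. For foxj1.S the values were 0.05, 0 and 0.1 CPM, 0.345, 0.123 and 0.405 CPM and 299, 327 and 354 CPM in the same order. The copy foxj1.L rose by the test, from 0.05, 0.0222 and 0 CPM, which is 3 reads in all, to 0.621, 0.492 and 1.06 CPM under IBET (adjusted p = 0.00167), against 80.2, 147 and 111 CPM with vehicle. Its level under IBET was 31.4-fold (95% counting interval 9.95 to 159) that of stage 9.

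The marker tekt2.S, a tektin of the axoneme, was at 0.0749, 0.0444 and 0.025 CPM at stage 9, 0.483, 0 and 0.456 CPM under IBET and 153, 38.7 and 85.8 CPM with vehicle. Not every gene of the list followed these. The gene ccno.S, which encodes cyclin O and is needed for the many basal bodies of these cells, rose from 4.77, 4.89 and 3.03 CPM to 71.97, 105 and 48.7 CPM under IBET (4.24 ± 0.37, adjusted p = 5.45e-05), below the 262, 260.2 and 119 CPM with vehicle. The beta tubulin gene tubb4b.L, a component of axonemes that other cells also express, rose from 18.6, 28.2 and 31.2 CPM to 1523, 2533 and 2780.5 CPM under IBET and to 2387, 2191 and 3052 CPM with vehicle, and the groups at stage 13 overlapped (IBET minus vehicle -0.13 ± 0.26, adjusted p = 0.702). The gene e2f4.L fell in both conditions, with changes of -2.12 ± 0.22 under IBET and -1.68 ± 0.19 with vehicle.

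On the list of 65 multiciliated cell homeologs, 21 of 53 tested rose and 12 fell under IBET (39.6% and 22.6%, near the 32.3% and 32.2% of all genes), with a median of 0.49 that became -0.24 with library totals alone. With vehicle 53 of 64 rose and 5 fell (82.8% and 7.81%, next to 35.9% and 35.4% of all genes, median 3.96). Between the stage 13 groups, 51 of 64 were lower under IBET (79.7%, next to 25.2% of all genes), at a median of -2.78, and the other 13 did not pass. Genes near 0 under IBET entered this test only where they held enough reads with vehicle, and could not come out higher. The axonemal dyneins and their assembly factors, grouped by symbol after the data were seen, rose in 5 and fell in 7 of 24 under IBET (20.8% and 29.2%, next to 32.3% and 32.2% of all genes). There were 8 rises without IBET library a and 3 without IBET library b or c or stage 9 library b or with library totals alone. Of these 24 genes, 20 were lower than with vehicle (83.3%, next to 25.2% of all genes). Their median of 0.30 under IBET was -0.43 with library totals alone.

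Ionocytes, the acid- and base-secreting cells of the skin, were represented by few tested genes. The forkhead factor foxi1, which specifies them, stayed low: foxi1.S was at 0, 0.0222 and 0 CPM at stage 9, 0.414, 0 and 0.911 CPM under IBET and 156, 153 and 197 CPM with vehicle, and foxi1.L was at 3.27, 0.978 and 1.3 CPM, 0.897, 0 and 7.19 CPM and 134, 141 and 139.7 CPM. Library c held the highest value under IBET for both copies and library b had no read of either. The carbonic anhydrase gene ca12.L moved in opposite directions, falling from 56.1, 44.2 and 59.5 CPM to 3.45, 4.12 and 7.59 CPM under IBET (-3.30 ± 0.34, adjusted p = 0.000108) and rising to 210.2, 86.3 and 141 CPM with vehicle (1.49 ± 0.32, adjusted p = 0.00357). With library totals alone that rise with vehicle did not pass (0.62, adjusted p = 0.0904).

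The proton pump subunit gene atp6v1b1.L was at 0.924, 0.755 and 0.15 CPM at stage 9, 0.207, 0.492 and 0.506 CPM under IBET and 93.03, 25.7 and 45.95 CPM with vehicle. The anion exchanger gene slc4a1.L fell under IBET (-3.16 ± 0.27) and, by less, with vehicle (-1.47 ± 0.35). The vacuolar ATPase subunit gene atp6v1b2.S, which most cells express, rose under IBET from 61.8, 59.3 and 75.05 CPM to 141, 155 and 155 CPM. Of 16 ionocyte homeologs tested, 7 rose and 5 fell under IBET (43.8% and 31.2%, near the 32.3% and 32.2% of all genes). Their median was 0.36, and -0.38 with library totals alone. Of 22 tested with vehicle 17 rose and 3 fell (77.3% and 13.6%, next to 35.9% and 35.4% of all genes, median 6.71). These were not all the same genes as under IBET, and those near 0 at stage 9 could not fall. Between the stage 13 groups 16 of 21 were lower under IBET, with 1 higher (76.2% and 4.76%, next to 25.2% and 22.9% of all genes). Ionocyte genes near 0 under IBET entered this test only where they held enough reads with vehicle, and could not come out higher. Without IBET library c, 4 ionocyte genes rose. The number that fell was 3 without IBET library a or c and 2 without IBET library b or stage 9 library c.

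The genes of the cement gland and secretory cells rose in 7 of 10 tested under IBET and in 14 of 15 with vehicle (70% and 93.3%, next to 32.3% and 35.9% of all genes). At stage 9, 4 of the 24 listed had no read, and genes near 0 there could not fall in these tests. Of the genes of the list, 7 of 16 tested were lower under IBET than with vehicle with 3 higher (43.8% and 18.8%, next to 25.2% and 22.9% of all genes). Their leading members were otx2.L, a homeobox gene of the cement gland and anterior head, and xbp1.L, the transcription factor of secretory cells. The gene otx2.L was at 0.05, 0.0222 and 0.0751 CPM at stage 9, 10.6, 3.88 and 18.7 CPM under IBET and 0.912, 3.79 and 1.47 CPM with vehicle, and it was lowest in library b of the IBET group and highest in library b of the vehicle group (IBET minus vehicle 2.44 ± 0.70, adjusted p = 0.0196). That difference did not pass without vehicle library a, vehicle library c or IBET library c (adjusted p = 0.0671, 0.0699 and 0.0731). The gene xbp1.L rose from 22.5, 19.6 and 42.6 CPM to 1449.6, 422 and 945 CPM under IBET, overlapping the 628, 639 and 723 CPM with vehicle. The monoamine transporter gene slc18a2.L, of small secretory cells, was already present at stage 9 (108, 161 and 106 CPM). It fell to 0.483, 4.55 and 1.42 CPM under IBET and to 0.152, 2.62 and 0.32 CPM with vehicle.

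**Figure D3:**
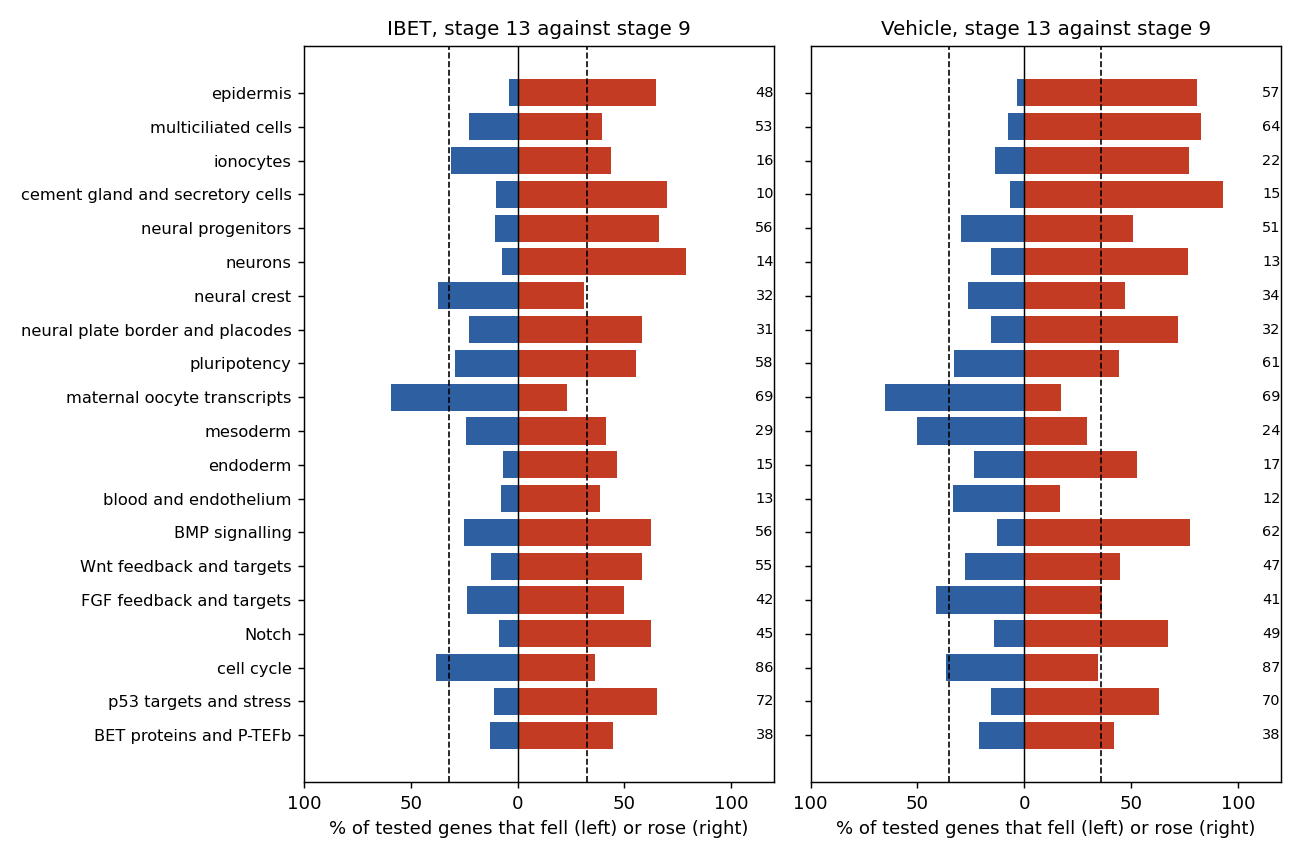
Share of the tested genes of 20 lists that rose (right) or fell (left) between stage 9 and stage 13, under IBET and with vehicle. Dashed lines give the share over all genes tested, 32.3 and 32.2% under IBET and 35.9 and 35.4% with vehicle, and the number of genes tested stands at the right of each panel. The multiciliated and ionocyte lists rose in 39.6 and 43.8% of tested genes under IBET and in 82.8 and 77.3% with vehicle, and neural progenitor genes in 66.1 and 51.0%. The genes tested differ between the panels, with 53 and 16 under IBET and 64 and 22 with vehicle for the first 2 lists named. Genes near 0 at stage 9 were tested only where they held enough reads at stage 13, and could not fall, so the shares are not of the same genes. With library totals alone 13 multiciliated and 4 ionocyte genes rose under IBET, of 53 and 16 tested.

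Neural progenitor genes were raised under IBET, in part above both stage 9 and vehicle. The SoxB1 factor gene sox3, which marks pluripotent blastula cells and later the neural plate, fell with vehicle and rose under IBET. The copy sox3.S was at 297, 282 and 241 CPM at stage 9, 1002, 1100.4 and 809.8 CPM under IBET and 33.1, 63.2 and 31.04 CPM with vehicle, with no overlap among the 3 groups (1.92 ± 0.18, adjusted p = 7.76e-05 under IBET, -2.65 ± 0.30, adjusted p = 0.000142 with vehicle). The copy sox3.L was at 160.2, 162 and 118 CPM, 433, 464 and 293 CPM and 38.3, 54.98 and 25.4 CPM (1.53 ± 0.24 under IBET), and its rise did not pass when all 10 groups of the stage 9 series shared 1 estimate of the spread (adjusted p = 0.0843).

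The SoxC factor gene sox11, of neural precursors, moved in the same way with a larger change. The copy sox11.L rose from 31.5, 25.9 and 31.6 CPM to 576, 404 and 443 CPM under IBET (4.09 ± 0.22, adjusted p = 1.32e-05) and fell to 8.76, 18.8 and 14.3 CPM with vehicle (-1.06 ± 0.30, adjusted p = 0.013). The zinc finger gene zic1, an early neural plate factor, did so too, with zic1.S at 12.8, 6.4 and 18.9 CPM at stage 9, 278, 267 and 235 CPM under IBET and 0.608, 2.28 and 0.96 CPM with vehicle (IBET minus vehicle 7.68 ± 0.53, adjusted p = 4.54e-05). Its relative zic2 differed, as zic2.L fell from 159.6, 159.5 and 112 CPM to 76.6, 91.1 and 49.4 CPM under IBET (-0.90 ± 0.27, adjusted p = 0.0204) and to 0.203, 1.06 and 0.448 CPM with vehicle (-7.94 ± 0.50). The fall of zic2.L under IBET did not pass without stage 9 library a or b (adjusted p = 0.0581 and 0.0579), and that of zic2.S (-1.16 ± 0.35, adjusted p = 0.0206) did not pass without IBET library c (adjusted p = 0.0692). With all 10 groups in 1 fit neither fall passed (adjusted p = 0.343 for .L and 0.127 for .S). Of 6 Zic homeologs tested under IBET, a group made by symbol after the data were seen, 4 rose and these 2 fell (66.7% and 33.3%, next to 32.3% and 32.2% of all genes). All 6 were higher than with vehicle (100%, next to 22.9% of all genes). Those near 0 with vehicle were tested there only where they held enough reads under IBET, and could not come out lower.

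On the list of 96 neural progenitor homeologs, 56 were tested under IBET and 37 rose and 6 fell (66.1% and 10.7%, next to 32.3% and 32.2% of all genes, with a median of 3.097). The other 40 held too few reads to be tested, and 11 of the 96 had no read at stage 9. Genes near 0 at stage 9 were tested only where they held enough reads at stage 13, and could not fall. The share of rises was thus set in part by the filter. With vehicle 26 of 51 rose and 15 fell (51% and 29.4%, next to 35.9% and 35.4% of all genes, median 1.42). Between the stage 13 groups 26 of 53 were higher under IBET and 4 lower (49.1% and 7.55%, next to 22.9% and 25.2% of all genes). Genes near 0 with vehicle entered that test only where they held enough reads under IBET, and could not come out lower. Under IBET 10 genes of the list fell with library totals alone. The largest change in the list was that of the ephrin gene efnb2, a membrane ligand of Eph receptors, in both copies. The copy efnb2.S rose from 0.749, 0.267 and 0.551 CPM to 235, 177 and 241 CPM under IBET and to 52.4, 67.4 and 67.5 CPM with vehicle, whereas efnb2.L rose from 0.175, 0.0889 and 0.275 CPM to 47.7, 40.4 and 58.7 CPM under IBET and to 189, 166 and 229.8 CPM with vehicle. The homeologs thus differed in order, as .S was higher under IBET (1.83 ± 0.25, adjusted p = 0.000691) and .L was lower (-1.97 ± 0.25, adjusted p = 0.000561). The lowest member was foxd4l1.1.L, a neural plate forkhead gene present in the blastula (-3.28 ± 0.82, adjusted p = 0.00855). The marker sox2.L rose from 2.12, 1.2 and 3.18 CPM to 9.73, 33.3 and 43.1 CPM under IBET, next to 12.41, 24.3 and 24.8 CPM with vehicle. The homeologs of nes, which encodes the intermediate filament nestin, moved in opposite directions under IBET. The copy nes.S rose to 10.8, 10.03 and 7.59 CPM from 0.275, 0.333 and 0.551 CPM, and nes.L fell (-1.49, adjusted p = 0.029).

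The LIM homeobox gene lhx3.S, of motor neuron and pituitary precursors, was close to 0 at stage 9 and with vehicle and at 4.55, 2.89 and 7.29 CPM under IBET, which was 318-fold (95% counting interval 87.2 to 2640) higher than at stage 9. Of 14 genes of differentiating neurons tested, 11 rose under IBET and 1 fell (median 5.66, or 5.13 with the gene that had no stage 9 reads set at its bound), and with vehicle 10 of 13 rose. Under IBET that was 78.6% and 7.14%, next to 32.3% and 32.2% of all genes. With vehicle the rises were 76.9%, next to 35.9% of all genes. The other 30 homeologs of the list held too few reads to be tested. Those near 0 at stage 9 were tested only where they held enough reads at stage 13 and could not fall, so the count of rises was largely set by the filter. The neuronal beta tubulin gene tubb2b.L rose from 0.25, 0.111 and 0.375 CPM to 104, 199.9 and 334 CPM under IBET and to 51.2, 107 and 107 CPM with vehicle. The zinc finger gene myt1.S rose from 0.0999, 0 and 0.125 CPM to 108, 21.5 and 74.9 CPM, overlapping 62.6, 42.7 and 54.98 CPM with vehicle. The summed level of the 44 neuronal homeologs lay at 271 to 513 CPM under IBET, against 617 to 919 CPM with vehicle and 7.4 to 11 CPM at stage 9.

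Genes of pluripotency were split. On a list of 70 homeologs, 32 of 58 tested rose and 17 fell under IBET (55.2% and 29.3%, next to 32.3% and 32.2% of all genes, with a median of 1.73). With vehicle 27 of 61 rose and 20 fell (44.3% and 32.8%, next to 35.9% and 35.4% of all genes, median 0.85). Between the stage 13 groups 20 were higher and 19 lower under IBET among 59 (33.9% and 32.2%, next to 22.9% and 25.2% of all genes). The POU factor gene pou5f3.2.L, a homolog of Oct4, rose from 73.95, 69.2 and 80.3 CPM to 1422, 723 and 637 CPM under IBET and to 132, 512 and 232 CPM with vehicle. The copy pou5f3.2.S rose from 48.95, 20.95 and 50.2 CPM to 704, 565 and 420.4 CPM under IBET, and with vehicle it was at 21.1, 63.3 and 20.2 CPM (-0.16 ± 0.52, adjusted p = 0.791). The IBET minus vehicle difference of pou5f3.2.L (1.68 ± 0.51, adjusted p = 0.0254) did not pass without vehicle library a or c or without IBET library a (adjusted p = 0.0726, 0.0878 and 0.0648), and that of pou5f3.2.S passed in all of them (4.03 ± 0.51, adjusted p = 0.000531 with every library).

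The homeobox gene ventx2.2, a BMP-induced partner of that network often compared with Nanog, rose in both conditions. Its .S copy went from 21.7, 8.15 and 14.1 CPM to 257, 125 and 237 CPM under IBET and 179, 192 and 181 CPM with vehicle (IBET minus vehicle 0.19 ± 0.29, adjusted p = 0.615). At the other end of the list, tdgf1.1.L, a Nodal co-receptor of the Cripto family, fell from 88.6, 59.1 and 92.6 CPM to 0.069, 0.492 and 0.405 CPM under IBET. With vehicle it fell to 0.203, 0.446 and 0.128 CPM. The gene pou5f3.3.L, the maternal POU factor, changed by -5.66 ± 0.60 under IBET (adjusted p = 0.000124). The largest rise in the list was pou5f3.1.L, the third POU factor gene (7.76 ± 0.87, adjusted p = 0.000158).

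Neural crest genes showed no common direction. Of 32 tested, 10 rose and 12 fell under IBET (31.2% and 37.5%, next to 32.3% and 32.2% of all genes), with a median of -0.55 that was 0.46 without stage 9 library a. Between the stage 13 groups 14 of 27 were lower under IBET with 6 higher (51.9% and 22.2%, next to 25.2% and 22.9% of all genes). Without IBET library c, or with library totals alone, 6 rose. The key factors snai2, foxd3 and twist1 were low in all 9 libraries, at no more than 4.76 CPM for snai2.L (4.76, 0.446 and 1.34 CPM with vehicle and 0.69, 0.123 and 0.456 CPM under IBET). For foxd3.L the values were 0.649, 0.0222 and 0.125 CPM at stage 9 and 1.31, 3.38 and 1.32 CPM under IBET (3.00 ± 1.03, adjusted p = 0.0328), a rise that did not pass in 5 of the 6 fits that left out a library, with adjusted p from 0.0518 to 0.123. The SoxE gene sox9.L rose from 2.22, 1.02 and 0.976 CPM to 28.2, 50.3 and 51.9 CPM under IBET against 3.8, 3.12 and 3.07 CPM with vehicle (IBET minus vehicle 3.73 ± 0.35, adjusted p = 0.000134). The integrin gene itga5.S, the fibronectin receptor of migrating cells, fell from 95.5, 79.5 and 64.9 CPM to 2.41, 3.63 and 3.49 CPM under IBET. With vehicle it fell by less, to 21.6, 7.85 and 13.6 CPM.

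Genes of the neural plate border and placodes rose in 18 of 31 tested and fell in 7 under IBET (58.1% and 22.6%, next to 32.3% and 32.2% of all genes, with a median of 3.83). At stage 9, 2 of the 48 listed had no read, and genes near 0 there could not fall in this test. With vehicle there were 23 rises and 5 falls of 32 (71.9% and 15.6%, next to 35.9% and 35.4% of all genes, median 3.62). The falls under IBET numbered 4 without IBET library c or stage 9 library a or b and 3 without stage 9 library c. The homeobox gene dlx5.L rose from 0.225, 0.222 and 0.501 CPM to 276, 53.3 and 237 CPM under IBET and to 112, 160.3 and 127 CPM with vehicle. The AP-2 gene tfap2a.L, which acts in both epidermis and border, rose from 7.19, 3.44 and 15.2 CPM to 646, 93.2 and 287 CPM, and tfap2a.S from 4.7, 2.09 and 9.11 CPM to 253, 11.3 and 80.5 CPM. In all 3 genes library b was the lowest of the IBET group, at 53.3 CPM for dlx5.L against 276 and 237 CPM in libraries a and c.

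Most markers of other germ layers were low or absent. Of 88 mesodermal homeologs, 29 were tested under IBET, and 12 rose and 7 fell (41.4% and 24.1%, next to 32.3% and 32.2% of all genes), with 11 falls with library totals alone. Their summed level was 105 to 290 CPM under IBET against 156 to 202 CPM at stage 9 and 78.9 to 150 CPM with vehicle. The defining gene tbxt.S (Brachyury) was at 1.57, 0.689 and 0.651 CPM at stage 9 and 0.276, 0.123 and 0.203 CPM under IBET, and the myogenic factor gene myod1.L rose slightly, from 1.27, 1.07 and 1.1 CPM to 4.21, 6.22 and 4.66 CPM (2.22 ± 0.39, adjusted p = 0.0014). The maternal T-box gene vegt.S fell from 40.3, 34.1 and 43.2 CPM to 0.759, 1.78 and 1.67 CPM under IBET and to 0.152, 3.51 and 0.192 CPM with vehicle. The notochord homeobox gene not.S fell (-2.70 ± 0.40, adjusted p = 0.000605), and not.L was at 54.3, 41.8 and 49.3 CPM at stage 9, 20.01, 32.7 and 45.9 CPM under IBET and 4, 15.2 and 6.14 CPM with vehicle.

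The organizer gene gsc.L was close to 0 at stage 9 and at 1.38, 3.45 and 4.86 CPM under IBET, which was 213-fold (95% counting interval 58 to 1770) higher than at stage 9, and was no higher than 0.152 CPM with vehicle. Of endodermal genes 7 of 15 tested rose and 1 fell (46.7% and 6.67%, next to 32.3% and 32.2% of all genes). At stage 9, 14 of the 43 listed had no read, and genes near 0 there could not fall in this test. The falls were 3 without IBET library b and 4 with library totals alone. The median of 0.16 for these genes turned to -0.55 with library totals alone and -0.13 without IBET library b. Among them a2m.S (endodermin) rose to 2.76, 6.95 and 10.03 CPM under IBET and to 30.1, 207 and 69.3 CPM with vehicle, and sox17a.L and sox17b.1.L, of the endoderm regulators, did not pass (adjusted p = 0.228 and 0.876). Blood and endothelial genes rose in 5 of 13 tested and fell in 1 (38.5% and 7.69%, next to 32.3% and 32.2% of all genes). There were 8 rises without IBET library a or without any single stage 9 library, and 2 falls without IBET library c or stage 9 library a and 3 with library totals alone. The globin gene hba3.L had no read at stage 9 or under IBET. Of 63 Hox homeologs 62 were too low to be tested, and their summed level was 4.48 to 19.7 CPM under IBET against 26.8 to 79.5 CPM with vehicle and 1.32 to 2.18 CPM at stage 9.

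**Figure D4:**
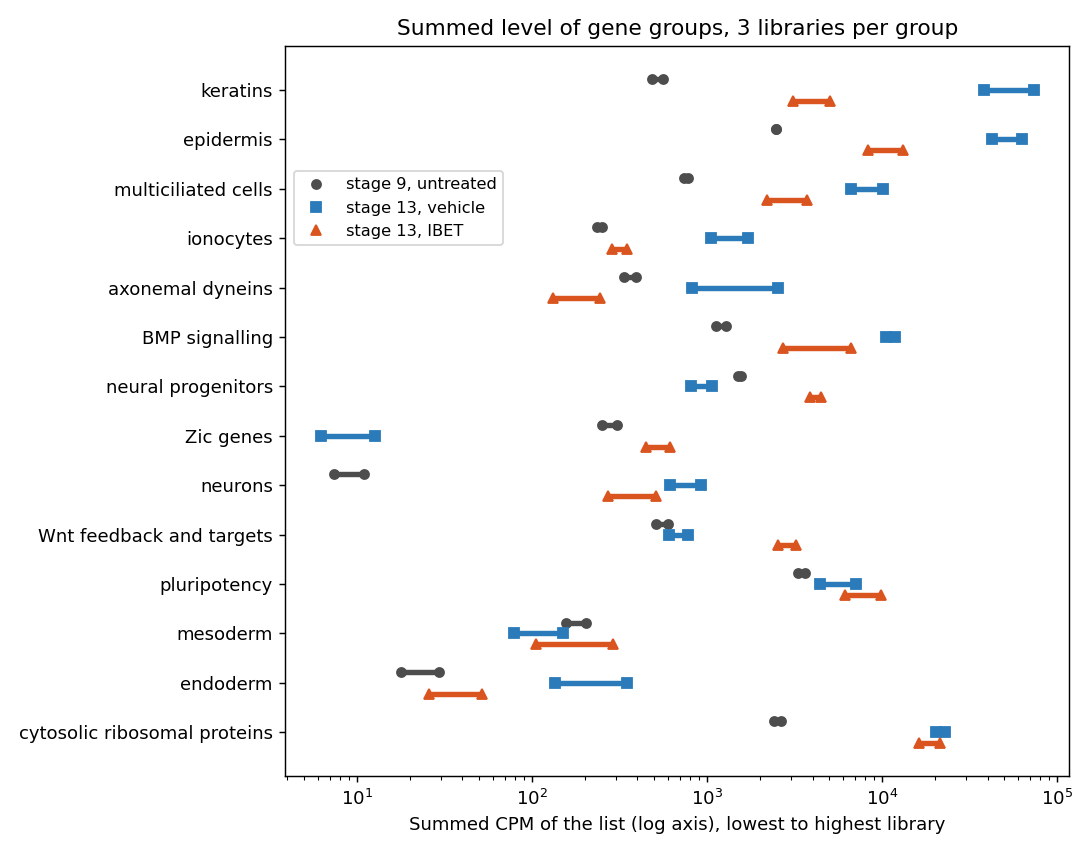
Summed level of 14 gene groups on a log axis, as the range from the lowest to the highest of the 3 libraries of each group. Epidermal and keratin genes lie between stage 9 and vehicle under IBET, Zic and neural progenitor genes lie above both other groups, at 448 to 612 and 3860 to 4480 CPM, and the ribosomal protein genes overlap with vehicle.

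Signalling genes are described from the ligands down. BMP genes, whose signals specify epidermis, rose in 35 of 56 tested and fell in 14 under IBET (62.5% and 25%, next to 32.3% and 32.2% of all genes, with a median of 3.09). Of the 71 listed, 8 had no read at stage 9, and genes near 0 there could not fall in this test. With vehicle 48 rose and 8 fell of 62 (77.4% and 12.9%, next to 35.9% and 35.4% of all genes, median 5.36). Between the stage 13 groups 36 of 61 were lower under IBET with 7 higher (59% and 11.5%, next to 25.2% and 22.9% of all genes). The ligand gene bmp7.2.S, supplied maternally, fell from 18.08, 17.6 and 17.7 CPM to 0.69, 0.677 and 1.01 CPM under IBET and to 0.0506, 0.891 and 0.768 CPM with vehicle. At the lower end of the list stood the ligand gene admp.L, which was at 2.07, 0.778 and 1.8 CPM at stage 9 and had no read under IBET, a fall of at least 25.6-fold against the floor. At the upper end stood dlx3.S, a homeobox gene of surface ectoderm, which had no read at stage 9 and was at 18.7, 0.615 and 12.9 CPM under IBET and 421, 443 and 386 CPM with vehicle. That was a rise of at least 442-fold, to a level far below vehicle in every library (IBET minus vehicle -5.26 ± 0.93, adjusted p = 0.00242).

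Genes of Wnt feedback and targets rose in 32 of 55 tested and fell in 7 under IBET (58.2% and 12.7%, next to 32.3% and 32.2% of all genes, with a median of 2.70). Of the 79 listed, 14 had no read at stage 9. Wnt genes near 0 at stage 9 were tested only where they held enough reads at stage 13, and could not fall. With vehicle 21 rose and 13 fell of 47 (44.7% and 27.7%, next to 35.9% and 35.4% of all genes, median 1.08). Between the stage 13 groups 23 of 52 were higher under IBET with 4 lower (44.2% and 7.69%, next to 22.9% and 25.2% of all genes). With library totals alone 13 of the Wnt genes fell under IBET. The receptor gene fzd8.L rose from 1.52, 0.867 and 1.95 CPM to 44.8, 81.7 and 52.05 CPM under IBET and to 18.8, 23.7 and 8.19 CPM with vehicle. The cyclin D1 gene, a target of this pathway, rose in both copies, with ccnd1.S going from 0.225, 0.0667 and 0.35 CPM to 22.8, 42.3 and 51.2 CPM under IBET and to 9.62, 17.2 and 16.6 CPM with vehicle. The largest rise of the list was that of kremen2.S, which encodes a co-receptor of the Wnt inhibitor Dickkopf. It had no read at stage 9 and was at 0.966, 6.89 and 6.38 CPM under IBET, at least 208-fold higher, and at 0.152, 0.446 and 0.256 CPM with vehicle.

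Of FGF genes 21 of 42 rose and 10 fell under IBET (50% and 23.8%, next to 32.3% and 32.2% of all genes, with a median of 1.29). With vehicle 15 and 17 of 41 did so (36.6% and 41.5%, next to 35.9% and 35.4% of all genes, median -0.39). Between the stage 13 groups 14 of 38 were higher under IBET and 4 lower (36.8% and 10.5%, next to 22.9% and 25.2% of all genes). The immediate early gene ier2.S rose from 9.82, 4.8 and 12.8 CPM to 203, 144 and 190.3 CPM under IBET and to 37.1, 48.4 and 50.6 CPM with vehicle (IBET minus vehicle 2.00 ± 0.26, adjusted p = 0.000557), and the receptor gene fgfr2.L rose from 2.45, 2.82 and 3.03 CPM to 81.6, 60.6 and 84.8 CPM, overlapping 55.9, 78.66 and 58.2 CPM with vehicle. Notch genes rose in 28 of 45 and fell in 4 under IBET (62.2% and 8.89%, next to 32.3% and 32.2% of all genes, with a median of 2.099). That was near 33 and 7 of 49 with vehicle (67.3% and 14.3%, next to 35.9% and 35.4% of all genes, median 2.18). At stage 9, 4 of the 56 listed had no read, and genes near 0 there could not fall in these tests. Of the Delta ligand gene dll1, the copy .S was lower than with vehicle and the difference of .L did not pass. The copy dll1.S was at 40.4, 53.1 and 60.4 CPM under IBET and 146, 268 and 247 CPM with vehicle (IBET minus vehicle -2.08 ± 0.31, adjusted p = 0.00112), and dll1.L was at 82.7, 129 and 112 CPM and 33.7, 108 and 74.9 CPM (0.60 ± 0.41, adjusted p = 0.25).

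Cell cycle genes rose and fell in similar numbers, with a median of 0.04 (-0.70 with library totals alone). Under IBET 31 of 86 rose and 33 fell (36% and 38.4%, near the 32.3% and 32.2% of all genes). With vehicle 30 and 32 of 87 did so (34.5% and 36.8%, near the 35.9% and 35.4% of all genes). With library totals alone 20 rose and 43 fell under IBET. The egg and cleavage cyclins ccna1 and ccnb1 fell in both copies, and ccnd1, ccne2 and ccnb3 rose in both copies, as did the kinase gene cdk1. The cyclin D2 gene was near the threshold, with ccnd2.L at 17.4, 15 and 16.8 CPM at stage 9, 22.8, 21.7 and 22.03 CPM under IBET and 7.65, 8.08 and 11.5 CPM with vehicle. Its rise (0.53 ± 0.20, adjusted p = 0.0499) did not pass in any fit that left out a library (adjusted p 0.0512 to 0.21) and turned to -0.22 with library totals alone. The copy ccnd2.S fell, from 28.2, 22.1 and 25.5 CPM to 16.1, 16.7 and 15.04 CPM (-0.57 ± 0.21, adjusted p = 0.0426), and that did not pass without any single stage 9 library or IBET library c (adjusted p 0.0573 to 0.133) or with the libraries paired by letter (0.0628). IBET minus vehicle passed for both copies, at 1.31 ± 0.30 for ccnd2.L and 1.75 ± 0.36 for ccnd2.S (adjusted p = 0.00718 and 0.00472).

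Genes of p53 and stress responses rose in 47 of 72 tested and fell in 8 under IBET (65.3% and 11.1%, next to 32.3% and 32.2% of all genes, with a median of 1.84). With vehicle 44 rose and 11 fell of 70 (62.9% and 15.7%, next to 35.9% and 35.4% of all genes, median 1.59). Under IBET 15 fell with library totals alone. Some rose further under IBET. The gene txnip.L, which encodes an inhibitor of thioredoxin that responds to glucose, was at 2.1, 4.38 and 3.28 CPM at stage 9, 54.8, 61.9 and 46.9 CPM with vehicle and 597, 712 and 799 CPM under IBET (IBET minus vehicle 3.71 ± 0.25, adjusted p = 4.43e-05). The p53 target gene tp53inp1.S was at 15.3, 15.5 and 18.05 CPM, 80.9, 82.8 and 90.8 CPM and 365, 404 and 377 CPM in that order (IBET minus vehicle 2.2 ± 0.21, adjusted p = 0.000146). The kinase gene sgk1.L was at 479, 1830.2 and 1899 CPM under IBET, where library a was the lowest, against 388, 281 and 376 CPM with vehicle and 6.17, 3.09 and 9.24 CPM at stage 9. The largest rise of the list was that of ccng1.L, which encodes cyclin G1, a p53 target, at 0.175, 0 and 0 CPM at stage 9, 339.9, 77.6 and 97.6 CPM under IBET and 307, 402 and 239.8 CPM with vehicle. The chaperone gene hspa1l.S, of the Hsp70 family, rose under IBET from 202, 199.7 and 241 CPM to 4108, 4254 and 3397 CPM, below the 6509, 6615 and 5409 CPM with vehicle.

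The gene brd2.S, which encodes a BET protein, was nearly silent at stage 9 (10.5, 4.31 and 17.5 CPM), and rose to 533, 498 and 463 CPM with vehicle and 1689, 1239 and 1349 CPM under IBET, where every library was above every vehicle library (IBET minus vehicle 1.54 ± 0.21, adjusted p = 0.000752). The cyclin T1 gene ccnt1.S, a subunit of P-TEFb, was at 10.6, 12.8 and 15.7 CPM at stage 9, 133, 95.3 and 105 CPM under IBET and 76.1, 88.6 and 96.5 CPM with vehicle (3.18 ± 0.25, adjusted p = 3.39e-05 under IBET). The gene hexim1, which encodes the inhibitor of P-TEFb and is often used to read out BET inhibition in human cells, rose in both copies. Its .S copy went from 2.85, 3.82 and 2.73 CPM to 184, 62.5 and 92.8 CPM under IBET and to 59.4, 49.5 and 34.8 CPM with vehicle (IBET minus vehicle 1.27 ± 0.41, adjusted p = 0.032). That difference was at adjusted p = 0.0614, 0.0753 and 0.121 without vehicle library a, b or c and at 0.0811 without IBET library a. Over the list of BET proteins, P-TEFb and elongation factors, 17 of 38 rose and 5 fell under IBET (44.7% and 13.2%, next to 32.3% and 32.2% of all genes). The median was 0.48, and -0.25 with library totals alone, when 10 rose and 14 fell. Between the stage 13 groups 10 were higher under IBET than with vehicle and 2 lower (26.3% and 5.26%, next to 22.9% and 25.2% of all genes).

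Growth and housekeeping genes rose both under IBET and with vehicle, in groups made by symbol after the data were seen. Of 133 genes named as cytosolic ribosomal proteins, 130 rose and 3 did not pass under IBET (median 2.98) and 131 rose with vehicle (median 3.25). Their summed level was 2420 to 2630 CPM at stage 9, 16200 to 21500 CPM under IBET and 20300 to 23000 CPM with vehicle. Between the stage 13 groups 5 of 133 were higher under IBET and 16 lower (3.76% and 12%, next to 22.9% and 25.2% of all genes). Proteasome genes rose in 62 of 80 and fell in 1 (77.5% and 1.25%, median 1.58), and genes of NADH dehydrogenase and its assembly in 40 of 68 with 5 falls (58.8% and 7.35%, median 1.18). The shares of all genes were 32.3% and 32.2%. With library totals alone 9 of the proteasome genes fell, and of the NADH dehydrogenase genes 25 rose and 11 fell. The share rising in the ribosomal group was 97.7% against 32.3% of all genes under IBET, and 98.5% against 35.9% with vehicle.

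A few genes came up under IBET from no reads at all. Of the 10 largest rises, krt12.5.S, scnn1a.S, atp1b2.L, clca3p.L and XB22064002.L [provisional] also rose with vehicle, and the other 5 stayed near 0 there. The gene c17orf58.L was at 12.2, 31.6 and 37.5 CPM under IBET, 0.152, 0.223 and 0.192 CPM with vehicle and had no read at stage 9, a rise of at least 1180-fold against the floor. For rasgrp2.S, an exchange factor of the small GTPase Rap1, the IBET values were 2.62, 36.7 and 17.01 CPM and the vehicle values 0.101, 0.279 and 0.128 CPM. The values of bglap.S (osteocalcin, a bone matrix protein) were 7.73, 20.3 and 19.2 CPM and 0.0506, 0.39 and 0.32 CPM, those of nmur1.L (a neuromedin U receptor) 14.4, 17.6 and 10.3 CPM and 1.32, 0.0557 and 0.768 CPM, and those of pcdhac2.S (a protocadherin) 4.42, 32.8 and 3.04 CPM and 0.304, 0.836 and 0.128 CPM. All 5 had no read at stage 9. They were picked as largest rises and grouped for staying near 0 with vehicle, so that the lack of overlap between their IBET and vehicle libraries follows from that choice. The spread among IBET libraries was wide for rasgrp2.S and pcdhac2.S, in which library b was the highest. With IBET from the 2-cell stage, nmur1.L was only at 0.0865 and 0.721 CPM at stage 13 and was not tested. There c17orf58.L, rasgrp2.S, bglap.S and pcdhac2.S rose, with log2 fold changes of 3.54, 3.17, 3.05 and 4.09.

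The tight junction genes cldn5.L and cldn5.S were at 13.9, 12.49 and 24.2 and 19.2, 45.5 and 83.8 CPM under IBET, with 0, 0.111 and 0 and 0.152, 0.501 and 0 CPM with vehicle and 1.1, 0.333 and 1.18 and 0.574, 0.378 and 0.501 CPM at stage 9.

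Among the largest rises found with vehicle too, 3 belong to ion transport. The epithelial sodium channel gene scnn1a.S had no read at stage 9 and was at 7.11, 15.6 and 23.5 CPM under IBET and 40.7, 59.9 and 54.6 CPM with vehicle. The sodium pump subunit gene atp1b2.L was at 0.025, 0 and 0.0751 CPM at stage 9, 61, 77.4 and 230.3 CPM under IBET and 694, 616 and 805 CPM with vehicle. The gene clca3p.L, of the family of calcium-activated chloride channel regulators, was uneven, at 7.87, 802 and 924 CPM under IBET with library a far below the others, and 119, 344 and 343 CPM with vehicle (IBET minus vehicle 1.13 ± 1.12, adjusted p = 0.427). Without IBET library a that difference was 1.73 (adjusted p = 0.0148).

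The same interval was also sampled in embryos kept in IBET from the 2-cell stage, in 4 libraries that share none with those above. There 7876 of 22481 genes rose (35.0%) and 7982 fell (35.5%), which became 5896 and 10187 with library totals alone (36.7% rises instead of 49.7%, median -0.49). Of 20923 genes tested both times, 5249 rose in both, which is 78.3% of the rises after treatment from stage 9 and 75.4% of those after treatment from the 2-cell stage, and 5629 fell in both, 81.7% and 72.1% of the falls. Opposite calls were found for 234 genes. Across these genes Pearson's r of the log2 fold changes was 0.84, as a description, since genes are not independent. When the difference between the 2 changes was tested, 1470 of 24716 genes had a higher change after the start at stage 9 and 1275 a lower one, with adjusted p under 0.05.

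**Figure D5:**
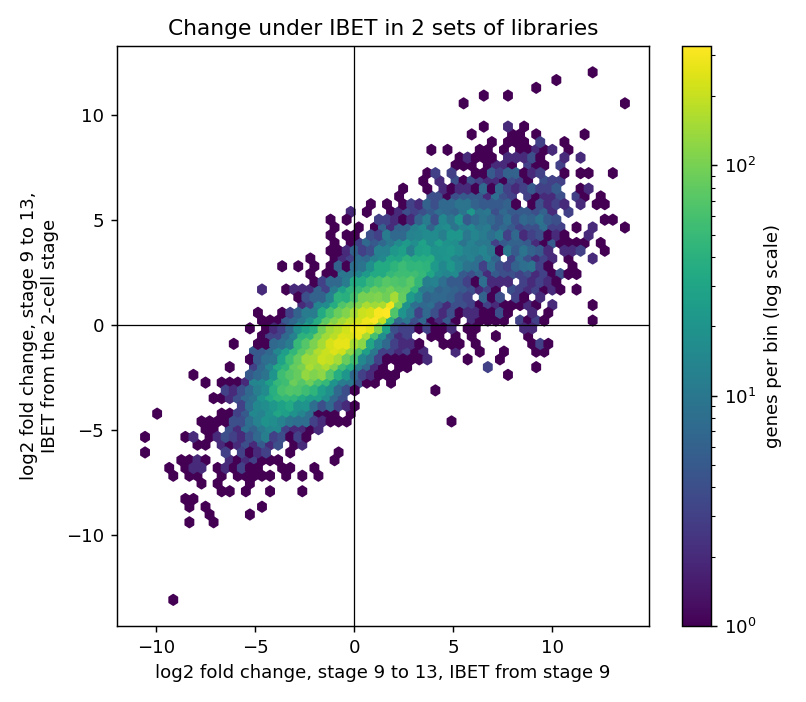
Log2 fold change from stage 9 to stage 13 for each of 20923 genes, with IBET from stage 9 (horizontal, 3 against 3 libraries) and from the 2-cell stage (vertical, 2 against 2). Colour gives the number of genes per bin on a log scale. Most genes lie along a rising diagonal, with r = 0.84 across genes.

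For some of the genes above the difference between the sets did not pass. The rise of sox11.L was 4.32 with IBET from the 2-cell stage and 4.09 from stage 9 (difference -0.32 ± 0.27, adjusted p = 0.478), and that of zic1.S was 5.45 and 4.45 (difference -1.09 ± 0.50, adjusted p = 0.181). Others differed. The gene pou5f3.2.L was at 691 and 785 CPM at stage 9 and 1551 and 1476 CPM at stage 13 in the 2 libraries each of embryos treated from the 2-cell stage, a smaller rise (1.04 against 3.73, difference 2.6 ± 0.43, adjusted p = 0.00943). The gene ier2.S was at 147 and 184 CPM and 251 and 185 CPM there (0.40 against 4.39, difference 3.90 ± 0.50, adjusted p = 0.00499), and brd2.S was at 98.2 and 143 CPM and 942 and 1111 CPM (difference 3.96 ± 0.63, adjusted p = 0.00874). For klf2.L the change there did not pass (-0.88 ± 0.42, adjusted p = 0.0971), with 37.9 and 14.3 CPM at stage 9 and 15.1 and 13.2 CPM at stage 13 (difference -5.28 ± 0.64, adjusted p = 0.00404). That change did pass with the libraries paired by letter (-0.72, adjusted p = 0.0342), with library totals alone (-1.37, adjusted p = 0.023), with no filter (-1.05, adjusted p = 3.99e-05) and without stage 9 library b of that set (-1.44, adjusted p = 0.000658). The levels of this set were scaled among its own 4 libraries.

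Opposite calls in the 2 sets included both copies of sall4, a zinc finger gene of the pluripotency network that was singled out after its values were seen. With IBET from stage 9, sall4.L went from 52.02, 74.2 and 46.3 CPM to 1.59, 1.29 and 3.85 CPM, against 22.6, 23.3 and 14.4 CPM with vehicle, and with IBET from the 2-cell stage it went from 18.5 and 20.2 CPM to 69.2 and 57.5 CPM (difference -6.38 ± 0.60, adjusted p = 0.002). The copy sall4.S changed by -4.58 and 1.64 (difference -6.33 ± 0.73, adjusted p = 0.00341).

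Where both homeologs passed the test, most pairs moved the same way. Of 5526 pairs with both copies tested under IBET, both rose in 1160 and both fell in 1256, 1 copy alone passed in 2026, neither in 819, and 265 pairs moved in opposite directions, each by a change that passed. These counts were made with TMM scaling only. The 265 include ccnd2, whose .L copy turned to -0.22 with library totals alone. The widest gap between fitted changes was that of adcy8, an adenylyl cyclase, singled out as the largest. The copy adcy8.L rose from 0, 0 and 0.025 CPM, which is 1 read, to 4.14, 11.6 and 6.84 CPM under IBET, 948-fold (95% counting interval 169 to 37500) higher (adjusted p = 7.81e-05), and adcy8.S fell from 16.9, 12.2 and 4.68 CPM to 0.69, 0.492 and 1.01 CPM (adjusted p = 0.000724). The Wnt inhibitor gene apcdd1, also named after its values were seen, was such a pair, with apcdd1.S rising (6.46) and apcdd1.L falling (-3.02). Reads that aligned to more than 1 place were not counted for any gene, so that pairs of near-identical sequence are less certain.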

How the data were processed

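RNA was taken from animal pole explants with TRIzol and sequenced from directional libraries. The deposited values are read counts per gene, which the authors made by trimming with fastp 0.23.2, aligning with STAR 2.6.0 to *X. laevis* genome version 9.2 and counting with HTSeq 1.99.2. The deposited tables of the authors' own comparisons hold DESeq fold changes and p-values and were not used, nor were the count tables of the other treatments except that all 10 groups of the stage 9 series entered 1 alternative. In the libraries used, 58.9 to 82.8% of the reads fell in genes. The HTSeq totals of the other reads (outside genes, aligned to several places or ambiguous) and a line with no gene name were left out.

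Counts were tested with edgeR 4.0.16 in R 4.3.3 (quasi-likelihood F test, TMM scaling, filterByExpr with a minimum count of 10 and a total of 15), only the groups compared entering each fit, with Benjamini-Hochberg adjustment over all genes tested. An exact permutation test of 3 against 3 libraries cannot go below p = 0.1, so p-values rest on the spread shared across genes. A gene with no read in a group was compared with a floor of 3 reads over that group. Ratios against 1 to 3 reads carry 95% intervals, which like the floors cover counting error only. The column letters are not tied to replicate numbers in the labels, but libraries of the same letter deviated together from their group means (r 0.284 to 0.335 between stage 9 and IBET, at least 0.222 over all 3 pairs of groups), so a paired fit, blocked by letter, was run beside the unpaired one. Its effect, and that of other scaling, no filter, DESeq2 1.42.0, a test against a 2-fold change and leaving out each library, is given in the closing section. The test was tried on simulated counts first.

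The members, the 21 gene lists (714 symbols, 657 found) and the tests were chosen with earlier results of these data known, and families grouped by symbol and the test of the difference between the IBET series after the values were seen. The text names the 10 largest rises and falls of annotated genes (mean log2 CPM of at least 2, no overlap between groups), from each list the 3 genes of lowest adjusted p at most, members at the ends of a list's range, cell type markers and genes that the study discusses for these explants. Some genes that this rule takes in are not reported here. No genome of the build used was at hand, and no coordinates are given.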

Additional observations from a re-analysis of the deposited data

Results flagged for a closer look

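The change after stage 9 differed between IBET and vehicle, by the test of the stage 13 groups against each other, for 4871 genes that were higher under IBET and 5360 that were lower. With library totals alone these counts were 5538 and 4888. The change after stage 9 was also compared between the IBET series. It also differed between embryos treated with IBET from stage 9 and from the 2-cell stage, for 1470 genes with a higher and 1275 with a lower change after the later start, by a test of the difference itself that was chosen after the data were seen. The start of treatment was not the only difference between these series, which were separate sets of libraries with 3 and 2 per group. Their stage 9 libraries were untreated after the later start and already under IBET after the earlier one. The tested difference therefore includes any difference at stage 9.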

How the results depend on the processing

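Leaving out each library in turn gave 6484 to 7800 rises and 6359 to 7359 falls under IBET, 7440 to 7910 and 7176 to 7786 with vehicle, 6351 to 7803 and 6717 to 7737 with IBET from the 2-cell stage, and 3173 to 5437 higher and 4290 to 5722 lower genes for IBET minus vehicle, where the 3173 came without vehicle library a. With the libraries paired by letter as a replicate block, 7358 genes rose and 7489 fell under IBET, 7979 and 7950 with vehicle and 8236 and 8309 with IBET from the 2-cell stage, and 5783 were higher and 5834 lower for IBET minus vehicle, all within 1.5 times of the unpaired counts. Among the named genes the block ended the calls of ccnd2.L and ccnd2.S under IBET and of esam.S for IBET minus vehicle, and added cldn4.L, fzd8.S and snai2.L there and klf2.L and tp63.L with vehicle, and with IBET from the 2-cell stage it ended lhx3.S and added klf2.L and zic2.L. The rise of ccnd2.L became -0.22 with library totals alone, for which the cause was not tested. DESeq2 gave 8031 rises and 6775 falls under IBET, no filter 9655 and 7608, all 10 groups in 1 fit 9447 and 7142, and the test against a 2-fold change 5015 and 4781. Over all alternatives, 87 of the counts of genes stayed within 1.5 times and 1 did not, and of the values of named genes 4230 kept their call, 113 lost it, 38 gained it and 1 turned. Counts of genes in the lists stayed within 1.5 times 761 times and did not 97 times, 20 of them with library totals alone and mostly where few genes were called. With 3 libraries per group, and genes at a few reads in 1 of the groups, depth limits the lowest members of each list.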
